A study of Mus musculus with 6 samples.

Results

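The genes described here encode proteins of the small ribosomal subunit, the part of the ribosome that binds messenger RNA and decodes it. They were defined as a family of 30 genes (Rps2 to Rps29 and Rpsa), each given by its Ensembl identifier. The definition uses no measured value, but the members were chosen with earlier results of these data known. Of these, 20 were among the 8941 genes in the deposited tables, and 17 of them are described below. The others were not analysed here. Each of the 17 had a mean of at least 1 RPKM (reads for each kilobase of a gene model, on a scale set library by library), the level required for testing, as had 8355 of all listed genes.

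The values are disome footprints from whole liver of male C57BL/6JRj mice aged 11 to 12 weeks, kept for 2 weeks under 12 h of light and 12 h of dark. A disome footprint is a stretch of messenger RNA shielded from nuclease by a pair of adjoining ribosomes, so its abundance reports where one ribosome has run up against another. Livers were taken when the light came on (zeitgeber time 0, ZT0), 2 h later (ZT2) and at the end of the light phase (ZT12), and 2 libraries were made for each. A library came from the pooled lysates of 2 mice, and is also called a pool below. The labels do not say whether the 2 libraries of a time point came from different mice. All lysates held cycloheximide, which halts elongation, and were treated for 45 min with 650 U of RNase I. By their labels no genotype, diet or treatment distinguished the groups, and time of day was the difference given. The labels used here name no batch of library preparation or sequencing, so a batch cannot be told apart from time of day. Single-ribosome footprints and total RNA were not analysed here. A difference in disome level therefore cannot be divided into messenger RNA abundance, its translation and the frequency of collisions. In whole liver a lower level from fewer cells cannot be told apart from less RNA per cell.

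Small subunit proteins are needed in equal numbers for assembly with ribosomal RNA in the nucleolus, and they line the path along which messenger RNA enters, is decoded and leaves. Their messenger RNAs begin with a terminal oligopyrimidine tract, a C followed by a run of C and T, through which the nutrient-sensing mTOR kinase controls their translation. In liver this control follows feeding and the day. Several members are themselves marks of collision: when ribosomes stack, ubiquitin ligases modify Rps2, Rps3, Rps10 and Rps20, which starts the rescue of the stalled complexes.

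The stretch around the transcription start is shown because the oligopyrimidine tract is the feature these messenger RNAs are known to share. Each line runs from 20 bases before to 10 bases from the annotated start, taken from RefSeq on build GRCm38.p6, and capitals mark the longest run of a C followed by at least 4 C or T. Members with a high, a middle and a low disome level are given.
Rps9 (chr7:3704021-3704050, + strand): gtccaaccgccttgtCTCTCTTTgtctcgg
Rps3 (chr7:99483700-99483729, - strand): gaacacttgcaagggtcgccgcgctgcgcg
Rps21 (chr2:180257359-180257388, + strand): gcacttaccgaggacccgCCCTCCTgccca
Rps25 (chr9:44407694-44407723, + strand): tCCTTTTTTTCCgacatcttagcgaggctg
Rps15a (chr7:118116138-118116167, - strand): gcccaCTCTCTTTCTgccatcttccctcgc
Rps2 (chr17:24720043-24720072, + strand): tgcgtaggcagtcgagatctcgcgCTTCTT
Rpsa (chr9:120127746-120127775, + strand): tggctgtgggttatttaaggacgtcatttc
Rps23 (chr13:90923102-90923131, + strand): acggggccttcggctgggcggggCTTCCCg

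A promoter entry was found for 15 of the 17 genes. Within the 30 bases, read on the gene's own strand only, 10 of the 15 held such a run, against 37.8% of 27025 genes in the table. Read from the annotated start itself, a C followed by at least 4 C or T was found in Rps21 and Rps15a, 2 of the 15, against 2.49% of the table. The run marked in Rps21 begins 2 bases before that start and extends over it. In Rps15a a longer run, in capitals, lies a few bases before that one. The annotated start can lie some bases away from the one used in liver, and runs of this kind are frequent in any promoter, so a match is a description of these letters. Among the genes shown, a run is present both in the highly covered Rps9 and in the sparsely covered Rps23, and absent from Rps3 and Rpsa alike.

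Reads recovered from the RPKM values (see the methods) totalled 6346387 to 12322651 per library, and the ZT12 libraries were the deepest. The libraries were uneven in genes listed at 0, which numbered 4 in either library of ZT0, 97 and 250 in those of ZT2, and 4 and 52 in those of ZT12. ZT2 replicate 2 and ZT12 replicate 2 also stand apart in the values below. Family counts and medians, and the changes of the genes named for their size, are given without them where 1 library moves the value by over 1.5 times. The labelled tissue was not checked against marker genes because neither the tables nor the reference pair identifiers with names.

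Disome levels of the small subunit genes were high for the typical member but spanned a wide range. Their median was 69.3 RPKM, against 7.47 RPKM over all listed genes, and the median member lay at the 85.7 percentile of all listed genes. By mean level, 15 of the 17 lay above the median of all genes, 13 above the 75th percentile and 7 above the 90th. Rps9 was at 471 RPKM and Rps23 at 3.01 RPKM, a 156-fold range among proteins that the subunit holds in equal numbers. RPKM falls with coding length in these tables, and the members are short, with lengths of 249 to 885 nt and a median of 444 nt against 1398 nt for all genes. Among the 2229 genes in that range of length, the median member lay at the 77.9 percentile, with 13 of 16 above the median of 19.9 RPKM, 9 above the 75th percentile and 2 above the 90th. Rps16 was left out of this comparison because its recovered length of 146 nt is no multiple of 3, so its reads and length may be too low by a whole factor.

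**Figure D1:**
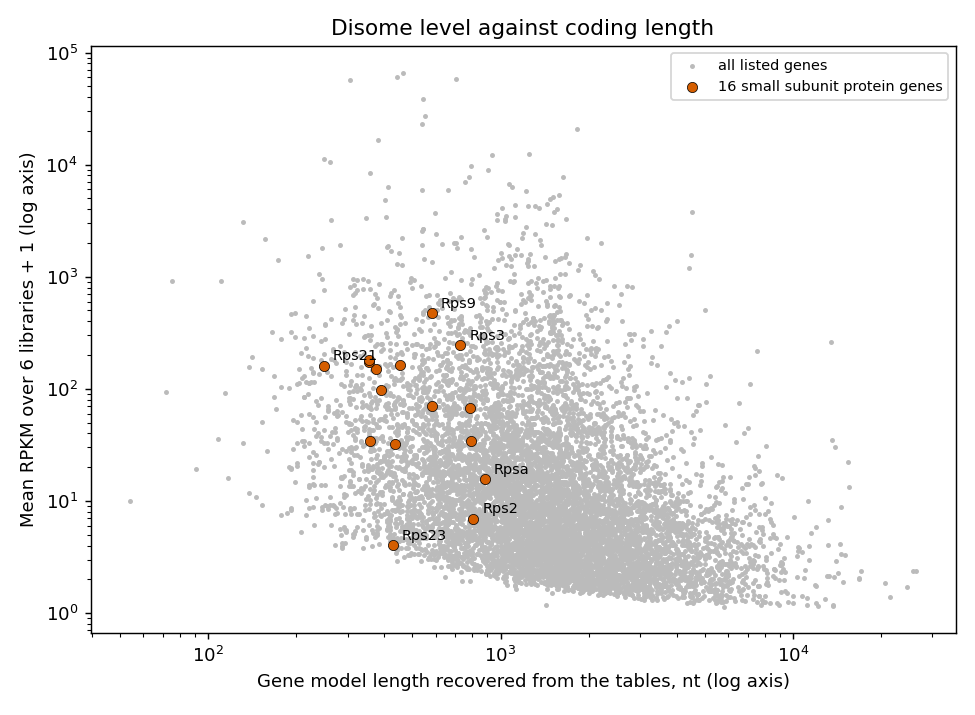
Mean RPKM over 6 libraries plus 1 against gene model length in nt, both on log axes, for all 8941 listed genes (grey) and 16 small subunit protein genes (orange; Rps16 is left out). Most members lie in the upper part of the cloud for their length, with Rps9 at 471 RPKM and Rps23, at 3.01 RPKM, near its lower edge.

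A few members held most of the signal. Rps9 and Rps3 together made up 37.6% ± 0.398 (SD, n = 6) of the summed RPKM of the 17 genes, and with Rps15 and Rps24 the share was 56.2% ± 1.71 (SD, n = 6). The share of Rps9 and Rps3 lay between 37.2% and 38.3% in all 6 libraries. Within the family, level and coding length were weakly related, with Spearman's rho of -0.39 over 16 genes, against -0.40 over the 8355 genes tested. These are correlations across genes that share the same libraries, and they carry no test. Ribosomal protein genes have many processed pseudogenes, and how the authors treated reads that fit several places is not given in the sources used here. RefSeq names at least 1 pseudogene after 11 of the 17 members, with 13 after Rps19, 12 after Rpsa and 12 after Rps2, and none after Rps9 or Rps3. Other members go the other way. Rps15a, at 96.2 RPKM, has 8, and Rps23, the lowest at 3.01 RPKM, has 2. Rps20 and Rps3a1, at 33.5 and 32.9 RPKM, have none. Only copies named by the member's symbol followed by -ps were counted, so copies under other names are missed. Across the 17 genes Spearman's rho between level and this number was -0.52, and the part of such copies in the low values was not tested. Levels of Rpsa, Rps2, Rps19 and other members with copies are therefore uncertain.

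As a group, the 17 genes held 0.175% ± 0.0659 (SD, n = 6) of all summed RPKM, from 0.190% of the listed genes. The ZT0 pools gave shares of 0.203% and 0.180%, the ZT2 pools 0.125% and 0.104%, and the ZT12 pools 0.152% and 0.288%. The ZT2 libraries were thus the lowest of the 6, the ZT0 libraries lay close together, and the ZT12 libraries lay on either side of ZT0. As a share of recovered reads the order was the same, with ZT0 pools of 0.109% and 0.0962%, ZT2 pools of 0.0708% and 0.0583%, and ZT12 pools of 0.0844% and 0.153%.

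**Figure D2:**
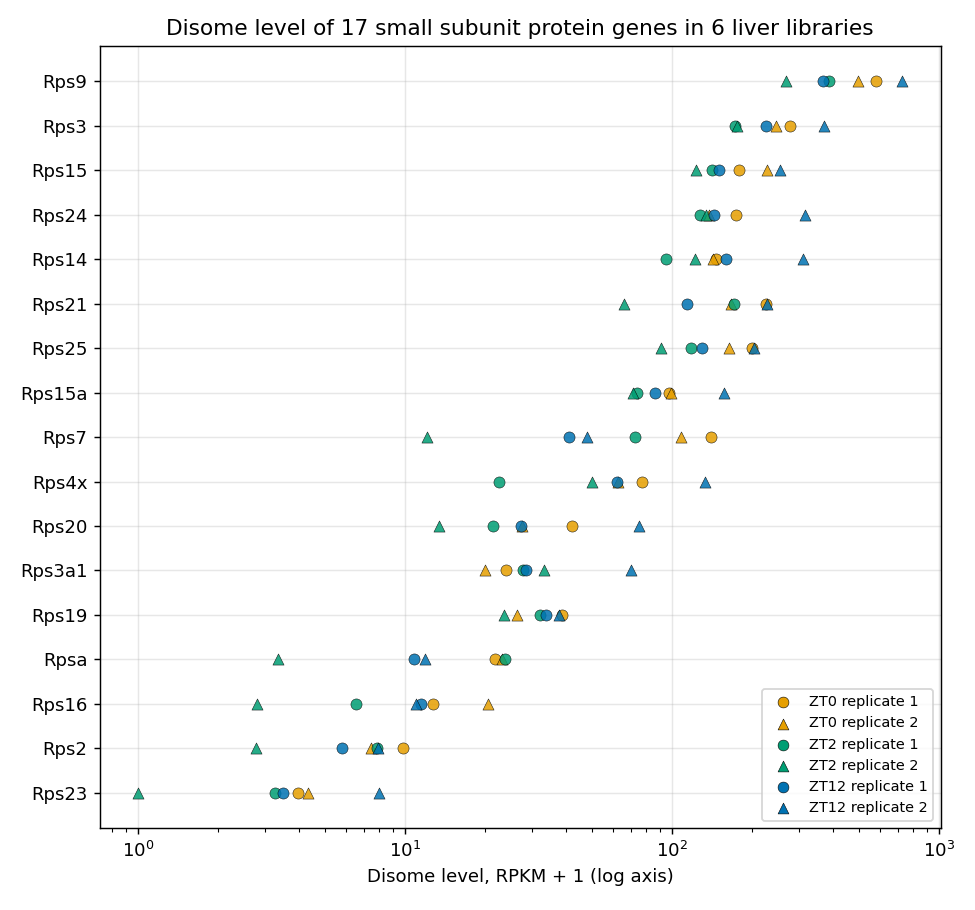
RPKM plus 1 of each of the 17 genes on a log axis, with genes ordered by mean level; colours mark the time point and shapes the replicate. ZT12 replicate 2 is the rightmost point in 12 genes, against 20.0% of all genes tested. ZT2 replicate 2 is the leftmost in 12, against 24.6%.

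The comparison of ZT2 with ZT0 asked what differed shortly after lights on. Of the 17 genes, 16 were lower at ZT2, as were 53.6% of all genes tested, and Rps3a1 was higher. The median log2 change of the family was -0.80, against -0.04 over all genes tested, on the scale of log2(RPKM + 1). None of the members passed limma's test at an adjusted p of 0.05 (0 of 17, with 0.0239% of all genes called). The smallest adjusted p in limma was 0.20, for Rps16, and 4 members had an unadjusted p under 0.05, all of them lower, against 13.7% of all genes (8.27% lower and 5.40% higher). In 12 of the 17 genes each ZT2 library was below each ZT0 library, as in 24.9% of genes tested, and in 1 each was above, against 21.5%. Without ZT2 replicate 2 the counts were 15 lower and 2 higher with a median of -0.48, and without ZT2 replicate 1 they were 16 and 1 with a median of -0.99.

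From ZT2 to ZT12 the family had higher values at the later time. At ZT12, 17 of the 17 genes were higher, as were 52.3% of all genes tested, and the median log2 change was 0.68 against 0.03. No member passed limma's test (0 of 17, with 2.06% of all genes called). Rps14 had the smallest limma adjusted p, 0.14, and 8 members had an unadjusted p under 0.05, all of them higher, against 19.2% of all genes (10.0% higher and 9.17% lower). In 11 of the 17 each ZT12 library exceeded each ZT2 library, as in 23.6% of genes tested, and in 0 each was below, against 22.3%. Without ZT12 replicate 2 the count was 16 higher and the median 0.32, and without ZT12 replicate 1 it was 17 and 1.10. Without ZT2 replicate 2 it was 13 higher and 4 lower, with a median of 0.65. This comparison shares the ZT2 libraries with the one before, so the low ZT2 values enter each of them.

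ZT12 against ZT0, the start of the dark against the start of the light phase, gave no common direction. The counts were 9 higher and 8 lower, with a median log2 change of 0.15 against -0.01 over all genes tested. No member passed limma's test (0 of 17, with 0.946% of all genes called), the smallest limma adjusted p was 0.30, for Rps3a1, and 1 member, which was higher, had an unadjusted p under 0.05, against 14.5% of all genes (6.14% higher and 8.34% lower). Libraries did not overlap in 2 genes that were higher (Rps3a1 and Rps14; 26.6% of genes tested) and 3 that were lower (Rps7, Rps16 and Rpsa; 27.8%). The direction of the median rested on ZT12 replicate 2: without it 3 genes were higher and 14 lower, with a median of -0.33, and without ZT12 replicate 1 there were 13 higher and 4 lower, with a median of 0.44. Over the 3 time points together, limma's F test called 0 of the 17 genes (1.26% of all genes called), with 5 at an unadjusted p under 0.05 against 18.6% and a smallest adjusted p of 0.13, for Rps16. By mean level 15 members were lowest at ZT2, 1 at ZT0 and 1 at ZT12, against 35.2%, 30.7% and 34.1% of all genes tested. The highest mean was at ZT12 in 11 members and at ZT0 in 6, against 34.7% and 31.9%. The share highest at ZT0 was thus near that of all genes, and the order was not tested. Scaling all libraries to the same summed RPKM moved the median of all genes to -0.11 between ZT0 and ZT2 and to 0.17 between ZT2 and ZT12. The family's medians were then -0.88 and 0.84.

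**Figure D3:**
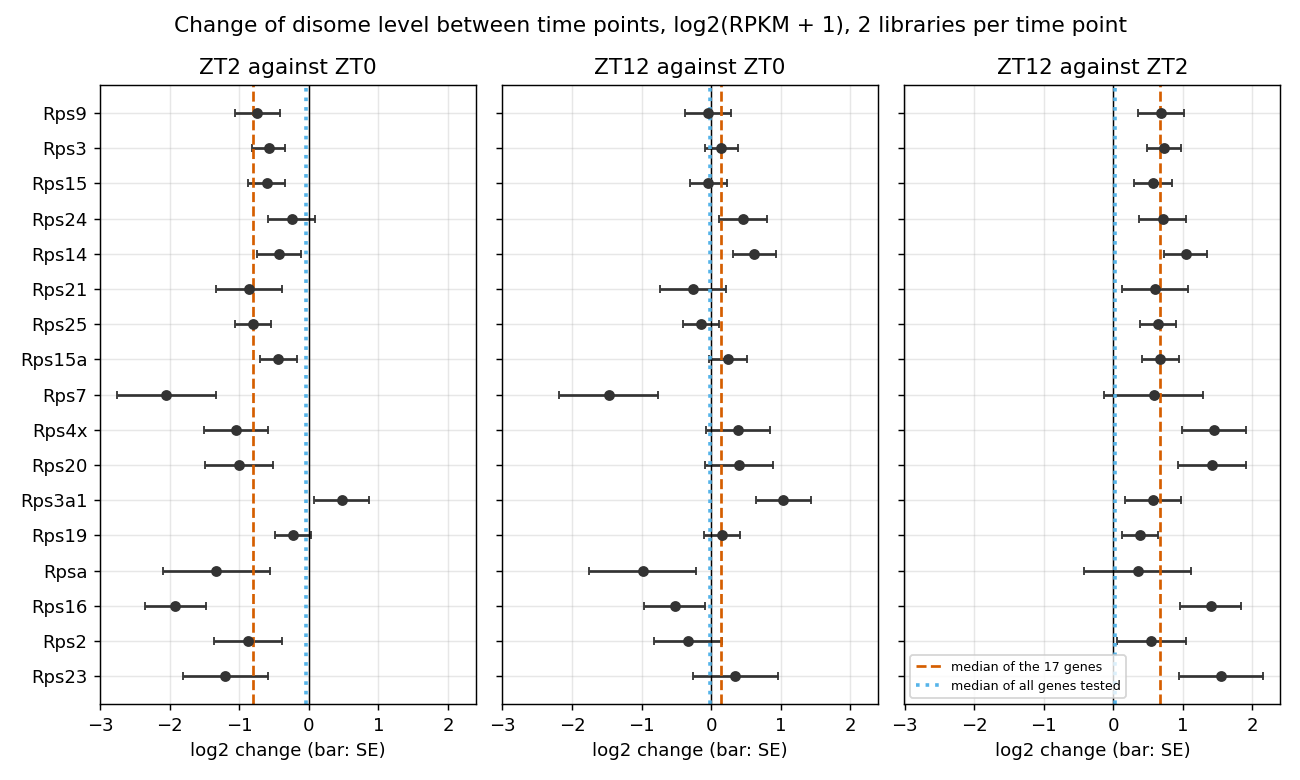
Log2 change of each gene with its limma standard error in the 3 comparisons; the dashed line is the median of the 17 genes and the dotted line that of all genes tested. The family's median is -0.80 from ZT0 to ZT2, 0.68 from ZT2 to ZT12 and 0.15 from ZT0 to ZT12.

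The median difference between the libraries of a time point was largest for this family at ZT12, while the largest gaps of single genes were at ZT2. At ZT12, replicate 2 was above replicate 1 in 16 of the 17 genes, Rps16 being the exception, and the median difference was 0.85 on the log2 scale against 0.00 over all genes tested. The difference exceeded 2-fold in 5 members, against 5.17% of all genes. The median size of the difference, whatever its sign, was 0.85 in the family, 0.27 in all genes tested and 0.20 in the 1007 genes whose mean reached 100 RPKM. At ZT0 the median difference was -0.25 and no member differed by more than 2-fold (0 of 17), against 1.44% of all genes. At ZT2 the median difference was -0.45, with replicate 2 higher in 5 of the 17, against 47.7% of all genes. At that time 7 members differed by more than 2-fold, against 14.4% of all genes. ZT12 replicate 1 lay below each ZT0 library in 13 of the 17 genes, against 40.9% of all genes tested. ZT12 replicate 2 lay above each in 12, against 40.2%. The 2 libraries of ZT12 thus placed most of the family on opposite sides of ZT0.

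**Figure D4:**
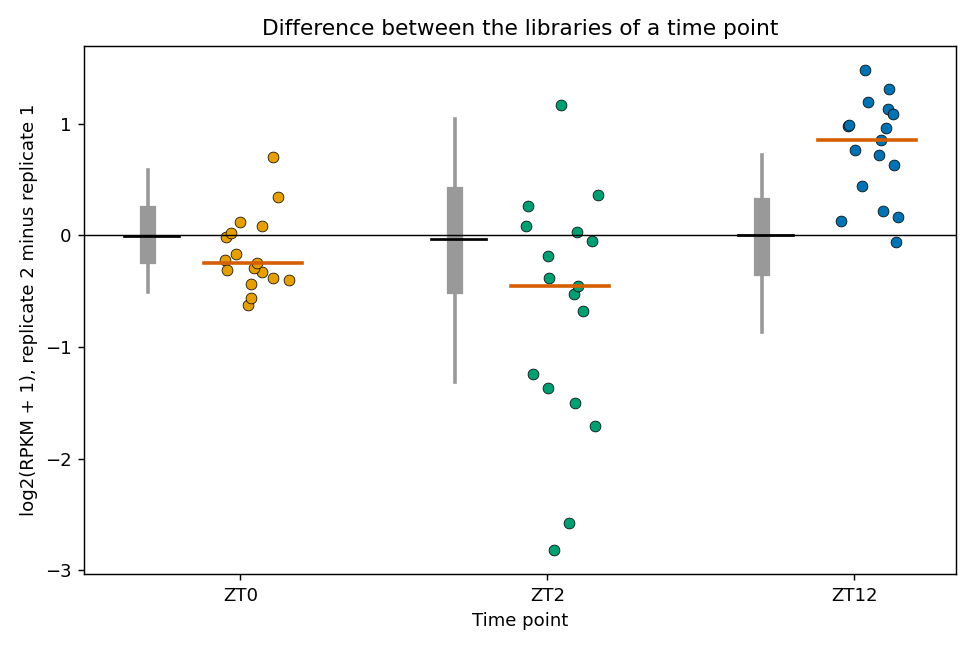
Replicate 2 minus replicate 1 in log2(RPKM + 1) at each time point; points are the 17 genes, the orange line their median, and the grey bars the 5th to 95th (thin) and 25th to 75th (thick) percentiles of all genes tested, with their median in black. At ZT12 the median of the 17 genes is 0.85 and that of all genes 0.00.

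The first group holds members that lie where messenger RNA enters the subunit and is decoded, or that are marks of collision. It includes the 3 listed targets of collision ubiquitination (Rps2, Rps3 and Rps20) beside Rps9 and Rps23. All 5 were lower at ZT2 than at ZT0 and higher at ZT12 than at ZT2, with median log2 changes of -0.87 and 0.73, and none passed the test, the smallest limma adjusted p being 0.36 and 0.18. Rps9 (ENSMUSG00000006333), which lines the entry channel, had 579 and 497 RPKM in the ZT0 pools, 385 and 266 in those of ZT2, and 368 and 728 in those of ZT12. Its ZT2 values lay below those of ZT0, while at ZT12 the libraries lay on either side, and the log2 change from ZT0 to ZT2 was -0.74 ± 0.33 (SE). Rps3 (ENSMUSG00000030744), an entry channel protein and a site of ubiquitination in collisions, had 275 and 244 RPKM in the ZT0 pools, 171 and 174 in those of ZT2, and 224 and 371 in those of ZT12. The ZT2 libraries were the lowest of the 6 and close together, at 173 RPKM ± 2.19 (SD, n = 2), and the change from ZT2 to ZT12 was 0.73 ± 0.24 (SE), limma adjusted p 0.18.

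Rps2 and Rps20, the other listed collision targets, were far less covered than Rps3. Rps20 (ENSMUSG00000028234) had 41.3 and 26.5 RPKM in the ZT0 pools, 20.4 and 12.4 in those of ZT2, and 26.1 and 74.4 in those of ZT12, from 34 to 328 reads. Its ZT2 values were below all others, its ZT12 libraries differed 2.85-fold, and the log2 change from ZT2 to ZT12 was 1.42 ± 0.49 (SE), limma adjusted p 0.19. That change was 0.68 without ZT12 replicate 2 and 2.16 without ZT12 replicate 1. Rps2 (ENSMUSG00000044533) had 8.79 and 6.43 RPKM in the ZT0 pools, 6.82 and 1.77 in those of ZT2, and 4.82 and 6.93 in those of ZT12, from 11 to 69 reads. Only ZT2 replicate 2 stands apart among the Rps2 values, and the other 5 libraries overlap between time points. Rps23 (ENSMUSG00000049517), which forms part of the decoding centre, had 2.98 and 3.33 RPKM in the ZT0 pools, 2.27 and 0 in those of ZT2, and 2.49 and 6.99 in those of ZT12. The value of 0 allows up to 3 reads, or 0.907 RPKM, counting error only, and with 37 reads at most Rps23 cannot show a small change at this depth. Its log2 change from ZT2 to ZT12 was 1.55 ± 0.61 (SE), limma adjusted p 0.23. It was 0.69 without ZT2 replicate 2, which has 0 reads, and 0.95 without ZT12 replicate 2. Without ZT2 replicate 1, with the library at 0 standing alone for ZT2, it was 2.40 with a limma adjusted p of 0.038.

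The second group lies at the exit side of the messenger RNA path or touches the transfer RNA sites (Rps14, Rps3a1, Rpsa, Rps21, Rps16, Rps25 and Rps15). From ZT0 to ZT2, 6 of the 7 were lower, and from ZT2 to ZT12 all 7 were higher, with median log2 changes of -0.80 and 0.60 and smallest limma adjusted p of 0.20 and 0.14. Rps14 (ENSMUSG00000024608), a protein of the platform near the messenger RNA exit, had 145 and 142 RPKM in the ZT0 pools, 94.0 and 121 in those of ZT2, and 158 and 308 in those of ZT12. The time points did not overlap, in the order ZT2, ZT0, ZT12, and the changes were -0.43 ± 0.31 (SE) from ZT0 to ZT2 and 1.04 ± 0.31 from ZT2 to ZT12, with limma adjusted p of 0.57 and 0.14. From ZT0 to ZT12 the change was 0.62 ± 0.31, limma adjusted p 0.41, and it was 0.14 without ZT12 replicate 2 and 1.10 without ZT12 replicate 1. The ZT12 libraries of Rps14, which differed 1.95-fold, enter the rise from ZT2 as well. Rps3a1 (ENSMUSG00000028081), which sits beside it on the platform, had 22.8 and 19.0 RPKM in the ZT0 pools, 26.6 and 32.1 in those of ZT2, and 27.5 and 69.5 in those of ZT12. It was lowest at ZT0, with a log2 change from ZT0 to ZT12 of 1.04 ± 0.40 (SE), limma adjusted p 0.30. That change was 0.39 without ZT12 replicate 2 and 1.69 without ZT12 replicate 1.

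Rpsa (ENSMUSG00000032518), known also as the laminin receptor precursor, had 20.7 and 22.0 RPKM in the ZT0 pools, 22.7 and 2.35 in those of ZT2, and 9.83 and 10.9 in those of ZT12. A single ZT2 library was low, at 16 reads, so that the log2 change from ZT0 to ZT2 was -1.33 ± 0.77 (SE) with that library and 0.09 without it. From ZT0 to ZT12 the values did not overlap, with a change of -0.98 ± 0.77 and a limma adjusted p of 0.61, which was 0.047 in a fit on those 4 libraries alone and 0.046 without ZT2 replicate 2. Rps16 (ENSMUSG00000037563), whose tail reaches the transfer RNA in the peptidyl site, had 11.7 and 19.5 RPKM in the ZT0 pools, 5.55 and 1.78 in those of ZT2, and 10.5 and 9.99 in those of ZT12. It was highest at ZT0 and lowest at ZT2, and the change from ZT0 to ZT2 was -1.92 ± 0.44 (SE), limma adjusted p 0.20, from reads that numbered 2 to 22 as recovered. Without ZT2 replicate 1 that change was -2.54 in Rps16 and -2.74 in Rpsa, with limma adjusted p of 0.025 and 0.013, and in Rps16 it was -1.30 without ZT2 replicate 2 (0.14). From ZT0 to ZT12 the Rps16 change was -0.52 ± 0.44, limma adjusted p 0.64, and -0.17 without ZT0 replicate 2.

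The other members of this group were better covered. Rps21 (ENSMUSG00000039001), a neighbour of Rpsa on the subunit, averaged 194 RPKM ± 41.6 at ZT0, 117 ± 74.0 at ZT2 and 169 ± 79.8 at ZT12 (SD, n = 2 each). Rps25 (ENSMUSG00000009927), which some viral messenger RNAs require to recruit the ribosome, averaged 180.1 RPKM ± 25.2, 104 ± 19.2 and 165 ± 50.6 in the same order. Rps15 (ENSMUSG00000063457), a protein of the head of the subunit, had 177 and 225 RPKM in the ZT0 pools, 139.6 and 122 in those of ZT2, and 149 and 253 in those of ZT12. In Rps25 and Rps15 each ZT2 library was below all 4 others, while the Rps21 libraries overlapped between time points.

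The third group holds members that belong to the body of the subunit or take part in its assembly (Rps4x, Rps7, Rps15a, Rps19 and Rps24). Here 5 of 5 were lower at ZT2 than at ZT0 and 5 of 5 were higher at ZT12 than at ZT2, with median log2 changes of -0.44 and 0.68 and smallest limma adjusted p of 0.31 and 0.16. Rps7 (ENSMUSG00000061477), required for processing of the subunit's ribosomal RNA, had 139 and 107 RPKM in the ZT0 pools, 71.8 and 11.1 in those of ZT2, and 40.1 and 46.9 in those of ZT12. Its ZT0 values were the highest, and its ZT12 pools, which were close to each other, also lay below them. The change from ZT0 to ZT2 was -2.05 ± 0.71 (SE), limma adjusted p 0.31. It was -0.75 without ZT2 replicate 2 (limma adjusted p 0.17) and -3.34 without ZT2 replicate 1 (0.0062). From ZT0 to ZT12 the change was -1.47 ± 0.71, limma adjusted p 0.40. The ZT2 libraries, which differed 6.44-fold, also enter the error of that fit. With the ZT2 libraries left out, or either of them, the limma adjusted p was 0.016.

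Rps4x (ENSMUSG00000031320), encoded on the X chromosome, had 76.3 and 61.5 RPKM in the ZT0 pools, 21.4 and 49.2 in those of ZT2, and 61.4 and 132 in those of ZT12. Its ZT2 values were below all others, and the change from ZT2 to ZT12 was 1.45 ± 0.46 (SE), limma adjusted p 0.16. It was 2.03 without ZT2 replicate 2, 0.86 without ZT2 replicate 1 and 0.90 without ZT12 replicate 2.

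Rps19 and Rps24 are genes mutated in Diamond-Blackfan anaemia, an inherited failure of red cell production. Rps19 (ENSMUSG00000040952) varied least of the members that had reads in every library, 1.69-fold from the lowest to the highest, and averaged 31.6 RPKM ± 8.84 at ZT0, 26.6 ± 6.04 at ZT2 and 34.7 ± 2.73 at ZT12 (SD, n = 2 each). Rps24 (ENSMUSG00000025290) had 173 and 137 RPKM in the ZT0 pools, 126 and 133 in those of ZT2, and 143 and 315 in those of ZT12. Only ZT12 replicate 2 stands apart in Rps24, and the log2 change from ZT0 to ZT12 was 0.46 ± 0.34 (SE), limma adjusted p 0.60, with that library and -0.11 without it. Rps15a (ENSMUSG00000008683), a protein of the body that binds ribosomal RNA directly, averaged 97.3 RPKM ± 1.20 at ZT0, 71.4 ± 1.77 at ZT2 and 119.8 ± 49.0 at ZT12. The ZT0 and ZT2 pools of Rps15a were close within each time point and did not overlap between them, with a log2 change of -0.44 ± 0.27 (SE), limma adjusted p 0.51. The error of that fit also takes in ZT12, where the Rps15a pools differed 1.81-fold.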

How the data were processed

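The authors deposited 1 table of RPKM values per library, listing Ensembl identifiers without symbols. Builds GRCm38.p2 and mm10 and the authors' tools edgeR, StringTie, STAR, Bowtie2 2.3.0, cutadapt and CASAVA 1.82 are named without their roles, per the submitters' processing notes. The gene filter and the handling of multiply mapping reads were not given in the sources used here. Symbols came with the identifiers that define the family; the reference table carries no Ensembl identifiers (0 of 49997 genes), so other translation genes, cell markers and protein features were not counted and 0 identifiers were matched through it. Within each gene the values were whole reads times 1 constant per library (8941 genes, relative tolerance 2e-13), which gave reads and lengths (95.2% multiples of 3, as coding lengths are). The constants followed the upper quartile of reads to within 1.01-fold. Some recovered reads may be too low where all libraries share a factor.

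Changes were tested on the scale of log2(RPKM + 1), which understates those of low genes, with limma 3.58.1 (R 4.3.3) over the 8355 genes whose mean reached 1 RPKM. One fit held all 6 libraries (3 residual degrees of freedom) with a variance trend and Benjamini-Hochberg adjustment over all genes, and the recovery and the fit were checked on simulated data. Ratios and SDs are of RPKM. The labels do not say whether the libraries of a time point came from different mice. Their titles share a name and differ in the replicate number. The p-values therefore measure the spread between these libraries, which may be technical. Values in every library are given for the 4 highest and 4 lowest members, the 3 largest rises and falls of each comparison and the largest replicate differences. Of the 20 listed members, 3 are not reported here, and counts over the family leave them out. The members and lists were chosen with earlier results of these data known, and the grouping by role was made after the values were seen. Promoter sequences are from RefSeq, GRCm38.p6. Depth is 6346387 to 12322651 recovered reads per library; limits for a value of 0 cover counting error only. Alternatives were pseudocount, filter, scaling, variance prior, libraries in the fit, replicate block, array weights, voom (of limma) on recovered reads scaled by their upper quartile, threshold and each library left out.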

Additional observations from a re-analysis of the deposited data

How the results depend on the processing

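The counts of members called, 0 in each of the 3 comparisons and in the F test, stayed at 0 under other pseudocounts, filters, scalings, variance priors, array weights, voom and an adjusted p of 0.1. The exception was 2 for ZT12 against ZT0 (Rps7 and Rpsa) on the 4 libraries compared, a fit that called 282 of the 8355 genes against 79 with all libraries. Leaving out each library gave 0 to 3 for ZT2 against ZT0, 0 to 2 for ZT12 against ZT0, 0 to 4 for ZT12 against ZT2 and 0 to 3 for the F test, with a lone library assumed to vary like the others. Most of these calls came without ZT2 replicate 1, which leaves ZT2 replicate 2 alone. Calls over all genes were also more frequent in that fit than with all libraries. Without ZT2 replicate 2 they were likewise more frequent, except for ZT2 against ZT0. The cause was not tested. Median log2 changes then ran from -0.99 to -0.48, from -0.33 (without ZT12 replicate 2) to 0.44, and from 0.32 to 1.10. Of 246 values for the genes named by their rise or fall, 234 kept direction and side of the threshold, 10 gained a call and 2 changed sign: Rpsa, ZT2 against ZT0, at 0.09 without ZT2 replicate 2 (range -2.74 to 0.09 with each library left out), and Rps24, ZT12 against ZT0, at -0.11 without ZT12 replicate 2 (range -0.11 to 1.02). The family held 0.0953% of recovered reads, 0.286% of summed RPKM without the 15 highest genes, and 0.153% to 0.190% with each library left out. Its median percentile was 77.9 among genes of like length and 85.1 to 87.0 with each library left out. Between time points, libraries sharing a number deviated from their group means with correlations of -0.076, -0.019 and 0.018. These values gave no sign of pairing, but they cannot show that libraries sharing a number were handled apart. With a replicate block 0 members were called in each comparison. With 2 libraries per time point, small changes cannot be resolved.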
